A study of Bos taurus with 6 samples.

Results

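The genes described here are the mitochondrial ribosomal proteins of cattle, taken as every gene whose symbol starts with MRPL or MRPS. On the array, 142 probes named such a gene, out of 43653 probes other than controls, and they covered 75 genes. Filters on outlier flags and dim probes left out 8 of these probes. Each gene was represented by its brightest remaining probe over the 6 arrays. All 75 of these brightest probes were well above background on all 6 arrays and none was saturated, and no gene was lost to the filters. Altogether 10754 genes with a symbol were measured.

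RNA of jugular vein whole blood, 1 sample from each of 6 female cattle, was measured on 1-colour Agilent arrays. The fat-1 group held 3 transgenic animals, of which replicate 1 was 3.5 years old and the other two were 3 years old. The wild type group held 3 animals, all 3 years old. The fat-1 gene comes from the nematode Caenorhabditis elegans and encodes an omega-3 desaturase, an enzyme that mammals lack. The promoter of the transgene and the number of founder animals are not given in the sources used here.

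Mitochondria translate the few proteins encoded in their own DNA, core subunits of the respiratory chain and ATP synthase, on ribosomes of their own. The RNA of these ribosomes is made in the organelle, while every ribosomal protein is encoded in the nucleus, made in the cytosol and imported. Many of the proteins have counterparts in bacterial ribosomes and others are found only in mitochondria. In blood the transcripts come from white cells, platelets and immature red cells, and mature mammalian red cells have lost their mitochondria.

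The probes of 2 genes are shown, because these genes stood at the opposite ends of the range of differences and each had a second measured probe in its own sequence. Capitals mark the 53 bases that both MRPL12 probes share, and no base is capitalised for MRPS35, whose probes share none. Positions are those of the array files, on the build Btau_3.1. The MRPL12 probes lie on the minus strand at chr19:52607534-52607690 and chr19:52607527-52607683, and each covers 157 bases of the build with 60 bases of probe. The MRPS35 probes lie on the minus strand at chr5:88272963-88273022 and chr5:88273190-88288800, and the second of them spans 15611 bases of the build. Whether a probe lies in a coding or an untranslated exon was not assigned, since no annotation of Btau_3.1 was used.
MRPL12 brightest probe: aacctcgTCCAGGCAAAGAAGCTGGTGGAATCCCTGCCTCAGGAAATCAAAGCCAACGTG
MRPL12 overlapping probe: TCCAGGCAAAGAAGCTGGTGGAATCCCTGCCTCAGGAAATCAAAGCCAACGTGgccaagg
MRPS35 brightest probe: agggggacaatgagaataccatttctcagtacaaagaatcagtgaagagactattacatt
MRPS35 other probe: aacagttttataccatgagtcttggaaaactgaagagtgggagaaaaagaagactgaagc

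Slide 1 and scan 1 held the fat-1 arrays and slide 2 and scan 2 the wild type arrays, and the effects of slide and genotype cannot be told apart. The 75th percentile of spot intensity ranged from 716 to 1067 on fat-1 arrays and from 613 to 887 on wild type arrays. Between 60.4% and 63.4% of probes were well above background on fat-1 arrays, against 58.4% to 61.3% on wild type arrays. Wild type replicate 2 had the lowest mean correlation with its own group, 0.970, against 0.973 to 0.984 for the other 5 arrays. Differences of named genes at their brightest probes and median differences of gene lists that moved by over 1.5 times without that array are also given without it.

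No mitochondrial ribosomal protein gene passed an adjusted p of 0.05, where 0.172% of all 26811 probes tested did, 0.0932% in the lower and 0.0783% in the higher direction. Levels are given as log2 processed intensity minus the array's 75th percentile, and a difference is the fat-1 level minus the wild type level, in log2. Of the 75 genes, 65 (86.7%) had a difference below 0, where 58.0% of all genes did. The median difference was -0.26, against -0.08 over all genes. The middle 50% of the genes lay between -0.31 and -0.07, and the whole range ran from -0.54 to 0.31. In blood, fewer cells of a type and less RNA per cell cannot be told apart.

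The differences of nearly all single genes were within the error of a design with 3 animals a group. The 95% interval of the difference had a median half-width of 0.51, and 74 of the 75 intervals held 0. In 9 genes the interval reached below -1 or above 1, and in the other 66 genes it lay within a 2-fold change either way. Of the 75 genes, 1 had an unadjusted p under 0.05 in the lower direction and 0 in the higher direction, where 6.37% and 5.6% of all genes did. In 22 genes (29.3%) every fat-1 animal lay below every wild type animal, where 13.3% of all genes did. In 0 genes did every fat-1 animal lie above every wild type animal, where 7.24% of all genes did.

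**Figure D1:**
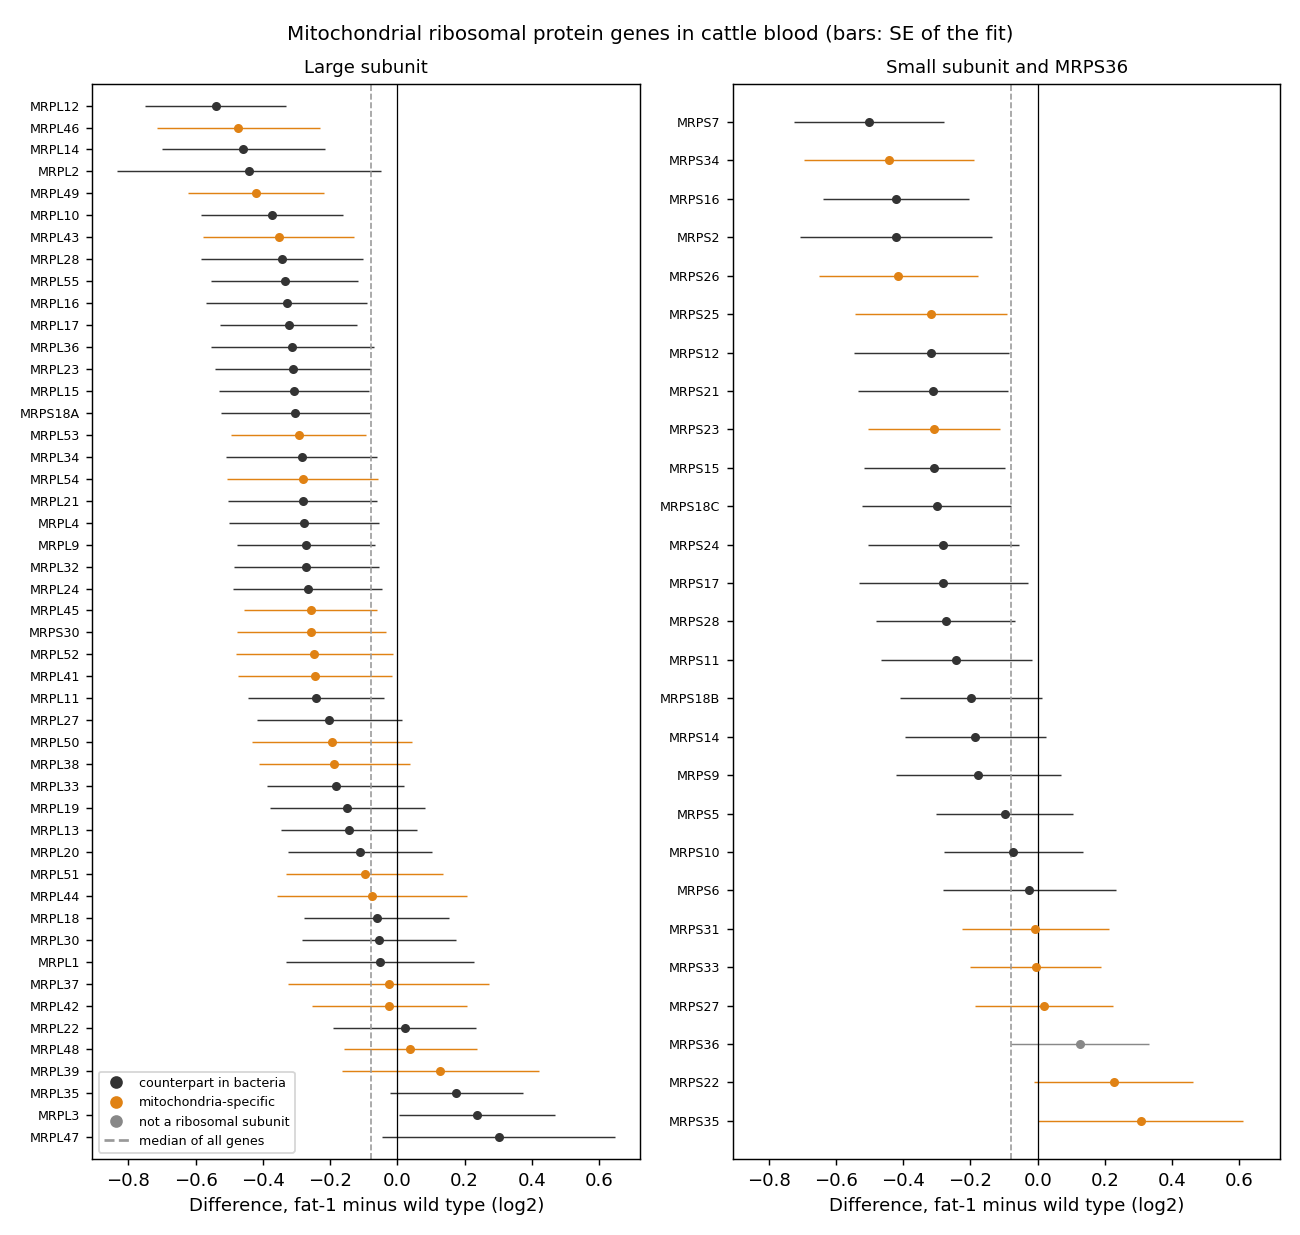
Fitted difference of each of the 75 genes, as fat-1 minus wild type on a log2 axis, with the standard error of the fit as a bar, in 2 panels by subunit. Most points of both subunits lie left of 0, and the dashed line marks the median of all genes at -0.08.

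The large subunit joins amino acids into the chain and lets the new protein leave through its exit tunnel. Its 48 measured proteins had a median difference of -0.26, with 42 below 0, and a median of -0.15 without wild type replicate 2. In 13 of them (27.1%) every fat-1 animal lay below every wild type animal, where 13.3% of all genes did so. MRPL12, the protein of the flexible stalk that recruits translation factors, had levels of 0.65, 0.49 and 0.60 in fat-1 animals, against 0.88, 1.20 and 1.29 in wild type animals. All 3 fat-1 animals lay below all 3 wild type animals. The mean level was 0.58 ± 0.08 over fat-1 animals and 1.12 ± 0.22 over wild type animals (SD, n = 3 each). The difference was -0.54 ± 0.21 (SE), with a 95% interval of -1.02 to -0.06 and a limma adjusted p of 0.367. MRPL12 was the gene with the unadjusted p under 0.05 counted above.

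The second MRPL12 probe, which overlaps the first, had levels of 0.64, 0.42 and 0.55 in fat-1 animals and 0.75, 1.14 and 1.26 in wild type animals. It gave a difference of -0.51, but since it shares most of its bases with the first it is not a separate sequence. One more probe lies on the plus strand at chr19:52610817-52610876, the strand opposite to the other two, and was dim. It was well above background in 3 fat-1 animals and 1 wild type animal and had a difference of 0.51 ± 0.45 (SE). In no other of the 75 genes did measured probes differ in sign and lie over 0.5 from the brightest one.

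MRPL10, which anchors the stalk to the body of the large subunit, had levels of 3.12, 3.19 and 3.41 in fat-1 animals and 3.54, 3.83 and 3.48 in wild type animals. The groups did not overlap, although the highest fat-1 animal and the lowest wild type animal lay close together. Its difference was -0.37 ± 0.21 (SE), with a 95% interval of -0.86 to 0.11, and it was -0.23 with quantile scaling, which gives every array the same distribution. MRPL1, a protein of the other stalk, through which spent tRNA leaves, had -3.02, -3.17 and -2.46 in fat-1 animals, against -2.73, -3.23 and -2.54 in wild type animals. These groups overlapped throughout, with a difference of -0.05 ± 0.28 (SE), or -0.25 without wild type replicate 2 and -0.12 with quantile scaling.

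MRPL46, a mitochondria-specific protein, had levels of 2.60, 2.82 and 2.51 in fat-1 animals and 2.92, 3.52 and 2.91 in wild type animals. The groups did not overlap, and wild type replicate 2 stood above the rest. The difference was -0.47 ± 0.24 (SE), and -0.27 without wild type replicate 2. A second MRPL46 probe gave -0.28 ± 0.27 (SE), with groups that overlapped. The brightest MRPL46 probe lies on chromosome 21 at 19101222 to 19101281, and that of MRPS11 lies 20128 bases away on the opposite strand. MRPS11, a small subunit protein named for this position after its values were seen, had a difference of -0.24, and -0.08 without wild type replicate 2.

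MRPL14, a protein of the face that meets the small subunit, had levels of 0.86, 0.72 and 1.11 in fat-1 animals and 1.22, 1.74 and 1.12 in wild type animals. The highest fat-1 level and the lowest wild type level nearly met. Its difference was -0.46 ± 0.24 (SE), and -0.27 without wild type replicate 2, and a second MRPL14 probe gave -0.36. MRPL49, a mitochondria-specific protein, had 0.29, 0.33 and 0.43 in fat-1 animals, against 0.87, 0.87 and 0.57 in wild type animals. The groups did not overlap, the difference was -0.42 ± 0.20 (SE), and the other probes of MRPL49 gave -0.50 and -0.44.

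MRPL2, a protein near the centre where peptide bonds are made, rested on a single array. Its levels were 2.87, 3.30 and 3.15 in fat-1 animals and 3.42, 4.44 and 2.79 in wild type animals. The lowest and the highest of the 6 levels were both from wild type animals. The difference was -0.44 ± 0.39 (SE) with all arrays and 0.0051 without wild type replicate 2.

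MRPL45, which in mammals lies at the exit of the tunnel and holds the ribosome at the inner membrane, had levels of 2.16, 2.31 and 2.38 in fat-1 animals and 2.60, 2.59 and 2.43 in wild type animals. The groups did not overlap, with a difference of -0.26 ± 0.20 (SE), a 95% interval of -0.71 to 0.19, and -0.14 with quantile scaling. Its other probes gave -0.23 and -0.34, but the first of these overlaps the brightest probe and is not a separate sequence. MRPL17, another protein of the exit side, had a difference of -0.32 ± 0.20 (SE), with levels of 3.36 to 3.52 in fat-1 animals and 3.58 to 3.93 in wild type animals, and -0.18 with quantile scaling. MRPL44, which carries a domain like that of ribonuclease III, had -0.19, -0.02 and 0.69 in fat-1 animals, against 0.53, 0.09 and 0.09 in wild type animals. The highest and the lowest MRPL44 level were both from fat-1 animals, and the difference was -0.08 ± 0.28 (SE), or -0.15 without wild type replicate 2.

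MRPS30 and MRPS18A carry small subunit names but sit in the large subunit of the mammalian mitochondrial ribosome, and they were counted there. MRPS30 had levels of -0.31, -0.59 and -0.02 in fat-1 animals and -0.05, -0.12 and 0.01 in wild type animals. Fat-1 replicate 3 lay among the wild type animals, and the difference was -0.26 ± 0.22 (SE). MRPS18A had a difference of -0.30 ± 0.22 (SE), with levels of 0.98 to 1.15 in fat-1 animals and 1.19 to 1.70 in wild type animals, which did not overlap. Without wild type replicate 2 it was -0.14.

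Of the large subunit, 6 genes had differences above 0, and none of them had groups that stood apart. MRPL3, a protein with a bacterial counterpart in which variants impair the respiratory chain in humans, had levels of 1.299, 1.103 and 1.456 in fat-1 animals and 1.136, 0.720 and 1.288 in wild type animals. Its difference was 0.24 ± 0.23 (SE), and 0.07 without wild type replicate 2. MRPL47, the counterpart of bacterial L29 at the tunnel exit, had 0.29, 0.08 and 0.48 in fat-1 animals, against 0.32, -0.83 and 0.45 in wild type animals. Wild type replicate 2 alone was low in MRPL47, and the difference was 0.30 ± 0.35 (SE) with that array and -0.10 without it. MRPL39 behaved alike, with 0.13 ± 0.29 (SE) and -0.12 without that array. MRPL35 had a difference of 0.18 ± 0.20 (SE).

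The small subunit binds the messenger RNA and reads its codons. Its 26 measured proteins had a median difference of -0.28, with 23 below 0, and a median of -0.14 without wild type replicate 2. In 9 of them (34.6%) every fat-1 animal lay below every wild type animal, against 13.3% of all genes. MRPS7, a protein of the head of the subunit, had levels of 2.14, 2.20 and 2.22 in fat-1 animals, against 2.59, 3.02 and 2.45 in wild type animals. The fat-1 animals were close together and all lay below the wild type animals, which were spread more widely, with an SD of 0.04 over fat-1 animals and 0.30 over wild type animals. The difference was -0.50 ± 0.22 (SE), with a 95% interval of -1.01 to 0.01 and a limma adjusted p of 0.390. The files give no position for the MRPS7 probe.

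MRPS16, in which variants cause a severe defect of mitochondrial translation in humans, had levels of 2.433, 2.370 and 2.818 in fat-1 animals and 2.920, 3.098 and 2.868 in wild type animals. Fat-1 replicate 3 lay close to the wild type animals, and the other fat-1 animals lay lower. The difference was -0.42 ± 0.22 (SE). MRPS34, a mitochondria-specific protein, had 3.32, 3.32 and 3.24 in fat-1 animals, against 3.45, 4.22 and 3.53 in wild type animals. The groups did not overlap, and wild type replicate 2 stood above the others. Its difference was -0.44 ± 0.25 (SE), and -0.20 without that array.

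MRPS12, a protein of the decoding site, had levels of 2.98, 3.00 and 3.19 in fat-1 animals and 3.52, 3.58 and 3.01 in wild type animals. One wild type animal lay among the fat-1 animals, and the difference was -0.32 ± 0.23 (SE), or -0.21 without wild type replicate 2 and -0.18 with quantile scaling. MRPS26, a mitochondria-specific protein, had levels of 5.18 to 5.38 in fat-1 animals and 5.47 to 6.11 in wild type animals, without overlap. Its difference was -0.41 ± 0.24 (SE), and -0.22 without wild type replicate 2 or -0.20 with quantile scaling.

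MRPS35 and MRPS22, both mitochondria-specific, had the highest differences of the small subunit. MRPS35 had levels of -0.90, -1.24 and -0.69 in fat-1 animals, against -0.73, -1.79 and -1.23 in wild type animals. The groups overlapped, and the difference was 0.31 ± 0.30 (SE), with 0.51 at the other probe printed above. MRPS22, in which variants cause severe mitochondrial disease in humans, had 0.33, 0.37 and 0.43 in fat-1 animals and 0.30, -0.25 and 0.41 in wild type animals. Wild type replicate 2 was again the low animal, and the MRPS22 difference was 0.23 ± 0.24 (SE), or 0.02 without that array. MRPS35 had 0.04 without it.

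MRPS36 bears a ribosomal name but is known as a part of the alpha-ketoglutarate dehydrogenase complex of the citric acid cycle. Its levels were 1.70, 1.80 and 1.79 in fat-1 animals and 1.71, 1.42 and 1.78 in wild type animals. They overlapped, with a difference of 0.13 ± 0.20 (SE), or 0.02 without wild type replicate 2 and 0.20 with quantile scaling.

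**Figure D2:**
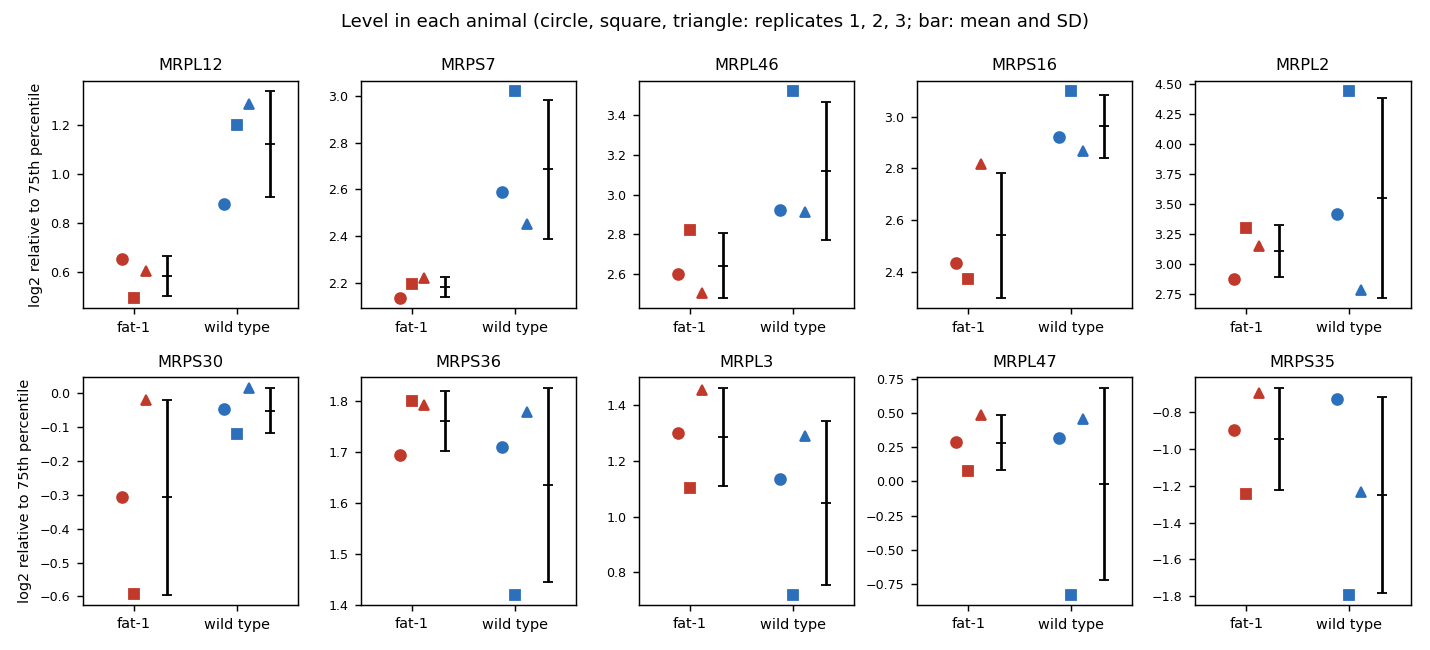
Level of 10 genes in each animal, each gene at its brightest probe, as log2 intensity minus the array's 75th percentile. Fat-1 animals are in red and wild type animals in blue, with bars for mean and SD. Each panel has its own axis. In MRPL12, MRPS7, MRPL46 and MRPS16 every fat-1 animal lies below every wild type animal, while in MRPL2 and MRPL47 wild type replicate 2, the blue square, lies far from the rest.

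Sorted by descent, the 17 small subunit proteins with bacterial counterparts had a median difference of -0.28, and all 17 were below 0. Without wild type replicate 2, which held the highest level of 14 of them, 15 were below 0. The 9 mitochondria-specific small subunit proteins had a median of -0.01, with 6 below 0. In 4 of these 9 (44.4%) every fat-1 animal lay below every wild type animal, against 13.3% of all genes. In the large subunit the medians were -0.27 for 31 proteins with bacterial counterparts, 27 of them below 0, and -0.24 for 17 mitochondria-specific ones, 15 of them below 0. Without wild type replicate 2 the 9 small subunit proteins had a median of -0.11, with 7 below 0, against -0.15 for the other small subunit class and -0.14 and -0.19 for the large subunit classes, so that the classes lay closer together. The 9 proteins, whose median lay nearest 0, had probes with fewer G and C bases, 36.7% at the median against 45% for each of the other classes, and the part of base composition in this was not tested.

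Probes of a gene mostly gave like differences. In 42 genes more than 1 probe was measured, which made 59 probes beside the brightest ones. Of these, 51 had the sign of the brightest probe and 51 lay within 0.25 of it. Over all 134 measured probes of these genes, 115 had a difference below 0. An unadjusted p under 0.05 was reached by 6 probes (4.48%), all in the lower direction, where 6.66% of all probes tested reached it in that direction. They were both minus strand probes of MRPL12 and one probe each of MRPL43, MRPL28, MRPL15 and MRPL49, of which MRPL43, MRPL28 and MRPL15 are large subunit proteins named after their values were seen. The MRPL28 probe had levels of 0.21, -0.32 and 0.26 in fat-1 animals and 0.64, 0.86 and 0.47 in wild type animals, a difference of -0.60 ± 0.24 (SE). The brightest MRPL28 probe gave -0.34, or -0.13 without wild type replicate 2, so the size depended on the probe.

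Levels were also set per animal, as the median over the 75 genes of the deviation from each gene's mean over the 6 animals. This median was -0.19, -0.16 and 0.02 in fat-1 replicates 1, 2 and 3, against 0.11, 0.28 and -0.00 in wild type replicates 1, 2 and 3. Fat-1 replicate 3 and wild type replicate 3 were thus nearly level, and the groups overlapped. Over all genes the same median was -0.06, -0.00 and -0.02 in fat-1 animals, against 0.04, 0.19 and -0.06 in wild type animals. Of the 75 genes, 27 were lowest in fat-1 replicate 1 and 22 in fat-1 replicate 2. Wild type replicate 2 held the highest level of 41 genes and the lowest of 12, and over all genes it held the highest level of 43.6% and the lowest of 22.8%.

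With quantile scaling the per-animal medians were -0.09, -0.13 and 0.06 in fat-1 animals and 0.06, 0.08 and 0.06 in wild type animals. Fat-1 replicates 1 and 2 stayed below the wild type animals, and fat-1 replicate 3 was level with them. The median difference of the 75 genes was then -0.14, against -0.01 over all genes, with 57 below 0 and 16 without overlap, all lower. Over all genes 51.2% were below 0 and 12.5% were lower without overlap under quantile scaling. The authors' value table gave -0.14 and -0.01 for the same medians, with 57 genes below 0 and 16 lower without overlap, where 51.2% and 12.5% of all genes were. With normexp background correction the median was -0.20, against -0.12 over all genes, with 59 below 0 and 11 lower without overlap, where 64.8% and 12.1% of all genes were.

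Relative to the median of all genes, the 75 genes stood at -0.18 with 75th percentile scaling, -0.13 with quantile scaling and -0.08 with normexp. Without wild type replicate 2 the median was -0.15, against -0.02 over all genes, with 65 genes below 0. Without fat-1 replicate 1, the older animal, it was -0.23, against -0.05 over all genes, with 59 below 0.

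**Figure D3:**
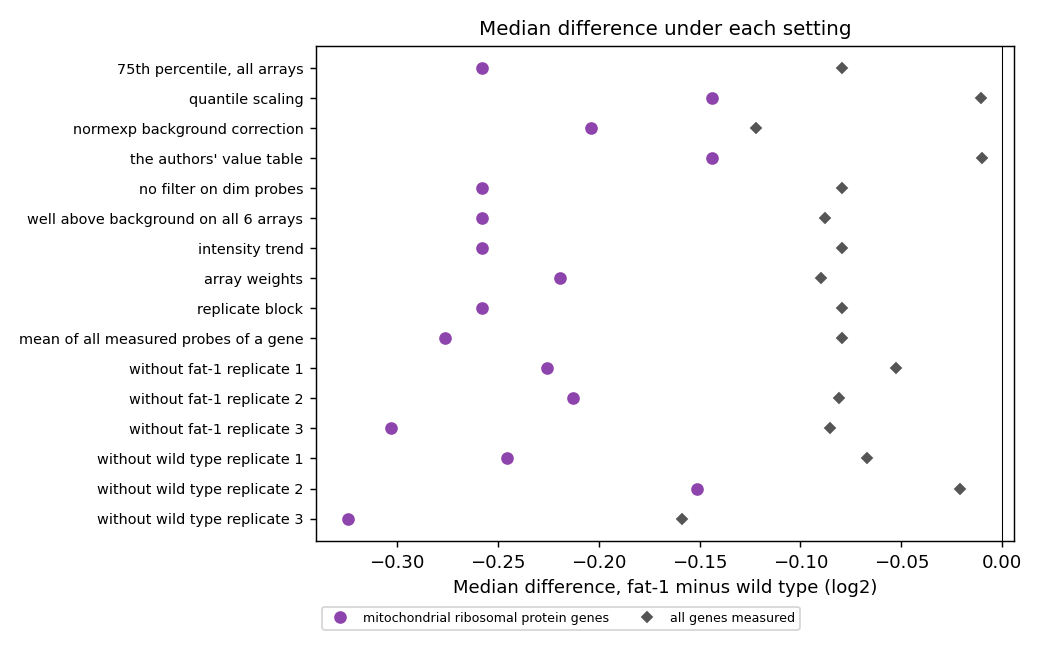
Median difference, fat-1 minus wild type on a log2 axis, of the 75 genes (circles) and of all genes measured (diamonds) under each setting. The circles lie between -0.32 and -0.15 where an animal is left out and at -0.14 with quantile scaling, to the left of the diamonds in each row.

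Base composition of the probes went with the differences. Among the 25 genes with 35% to under 40% of G and C in the probe, 19 were below 0 and the median was -0.15, against 0.05 for all genes with such probes. From 40% to under 45% the median was -0.28 over 9 genes, against -0.01, and from 45% to under 50% it was -0.27 over 29 genes, against -0.10. At 50% and over all 12 genes were below 0, with a median of -0.31, but there the median of all genes was -0.27. The median of the 75 genes thus lay below that of all genes in each band with 75th percentile scaling, by little in the last one. With quantile scaling it was -0.215 in the last band, for the 75 genes as for all genes.

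Across the 75 genes the difference and the share of G and C had a correlation of -0.434, and across all 10754 genes one of -0.246. These points share the same 6 arrays, and genes are not replicates. Without wild type replicate 2 the correlation over the 75 genes was 0.0249, and over all genes it was -0.0919. The deviation in that animal correlated with the share of G and C at 0.577 over the 75 genes and at 0.381 over all genes. In fat-1 replicate 3 it did so in the opposite direction, at -0.558 and -0.309, and in wild type replicate 3 at -0.371 and -0.205. The correlation over the 75 genes lay between -0.278 and 0.109 in the other 3 animals. Without that array the medians of the 75 genes by band were -0.14, -0.23, -0.15 and -0.13, in order of rising G and C, against 0.02, 0.02, -0.02 and -0.11 over all genes. The bands were chosen after the values were seen, and the part of base composition in the differences was not tested.

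**Figure D4:**
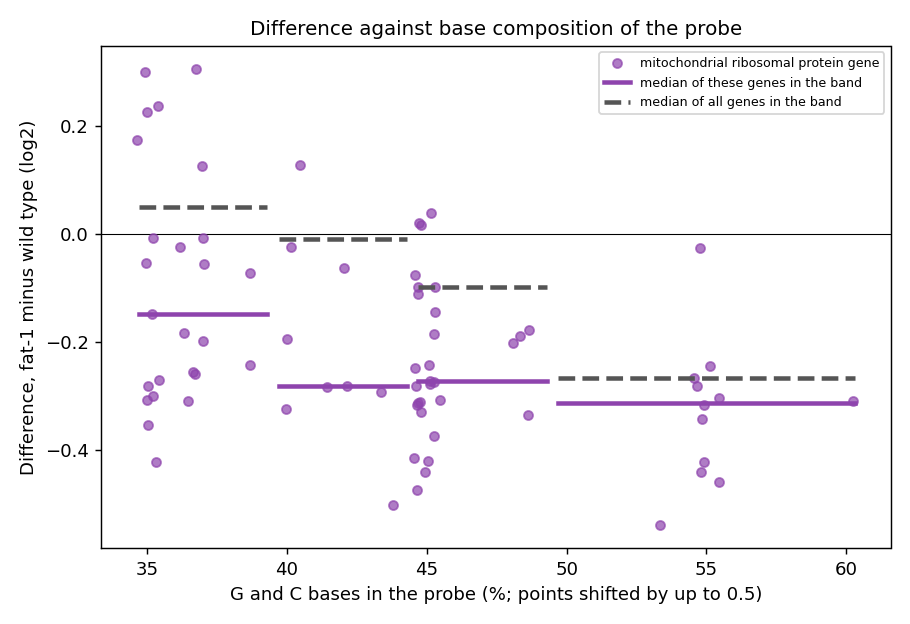
Difference of each of the 75 genes, fat-1 minus wild type in log2, against the percent of G and C bases in its probe, with points shifted sideways by up to 0.5 to separate them. Solid lines mark the median of these genes and dashed lines that of all genes in each band, which lie at -0.31 and -0.27 in the band of 50% and over.

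Other components of the same machinery were set beside these genes. Of the mitochondrial ribosomal proteins that go by other names, 7 were measured, with a median of -0.25 and 6 below 0, and a median of -0.14 without wild type replicate 2. GADD45GIP1, a large subunit protein at the tunnel exit, had levels of 2.21, 2.34 and 2.28 in fat-1 animals and 2.71, 3.16 and 2.63 in wild type animals. Its difference was -0.55 ± 0.22 (SE), without overlap and with a limma adjusted p of 0.372. CHCHD1, a small subunit protein, had a difference of -0.58 ± 0.23 (SE), also without overlap, and MRPL58, a hydrolase that frees stalled chains, had -0.29, or -0.14 without wild type replicate 2.

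The factors that build and use the ribosome had medians near or above 0, and no gene among them passed an adjusted p of 0.05. Of 20 measured assembly factors 9 were below 0, with a median of 0.02, or 0.04 without wild type replicate 2. Only 1 of the 20 had an unadjusted limma p under 0.05, in the lower direction, where 6.37% of all genes did. This factor was RPUSD4, a pseudouridine synthase that acts on mitochondrial RNA. It had 0.75, 0.62 and 0.72 in fat-1 animals and 1.56, 1.59 and 1.20 in wild type animals. Its difference was -0.75 ± 0.21 (SE), without overlap, with a limma adjusted p of 0.253. GTPBP10 and FASTKD2, both needed for the large subunit, had 0.74 and 0.57 with groups that overlapped. GTPBP10 had 0.07 with normexp background correction, and without wild type replicate 2 the values were 0.42 and 0.29.

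Of 13 measured translation factors 5 were below 0, with a median of 0.10, which became -0.07 with normexp and 0.03 without wild type replicate 2. In 3 of the 13 (23.1%) every fat-1 animal lay below every wild type animal, where 13.3% of all genes did so. The reverse held in 1 of the 13, against 7.24% of all genes. An unadjusted limma p under 0.05 was reached by 3 of the 13, all higher, where 5.6% of all genes reached it in that direction. The 3 higher genes with such a p were GFM2, MTIF2 and MTRF1. GFM2, which acts in ribosome recycling, had levels of 1.34, 1.11 and 1.51 in fat-1 animals and 0.90, 0.03 and 0.98 in wild type animals. Its groups did not overlap, and the difference was 0.68 ± 0.29 (SE), or 0.69 with normexp and 0.38 without wild type replicate 2. The initiation factor MTIF2 and the release factor MTRF1 were dim and had 0.94 and 0.66, but -0.18 and -0.07 with normexp and 0.60 and 0.41 without wild type replicate 2. The median share of G and C in the probes of these factors was 36.7%.

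The 18 measured mitochondrial aminoacyl-tRNA synthetases and related enzymes, which charge the tRNAs, had a median of -0.01 with 10 below 0, and of -0.02 without wild type replicate 2. CARS2, which charges cysteine, had a difference of -0.37, or -0.23 without wild type replicate 2, and GATC, a subunit of the amidotransferase for glutamine tRNA, had -0.35. The 13 measured proteins of mitochondrial DNA copying and transcription had a median of 0.05 with 6 below 0, and medians of -0.04 with normexp and 0.01 without wild type replicate 2. TRMT10C, a subunit of the enzyme that cuts mitochondrial tRNAs free, had levels of -0.24, 0.38 and 0.05 in fat-1 animals and -1.01, -1.32 and -0.35 in wild type animals. Its groups did not overlap, with a difference of 0.96 ± 0.30 (SE) and a limma adjusted p of 0.304. TFAM, which packs mitochondrial DNA, had 0.47 and PRIMPOL, a primase, had 0.51, each with groups that overlapped. With normexp they had 0.08 and 0.22, and PRIMPOL had 0.31 without wild type replicate 2.

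A median near that of the mitochondrial ribosomal proteins was also found in lists of other widely expressed proteins. The 77 measured cytosolic ribosomal proteins had -0.26 with 74 below 0, and the 36 measured subunits of complex I, the first enzyme of the respiratory chain, had -0.26 with 33 below 0. Every fat-1 animal lay below every wild type animal in 9 of the cytosolic ribosomal proteins (11.7%) and 15 of the complex I subunits (41.7%), where 13.3% of all genes did so. With quantile scaling the medians were -0.03 for the cytosolic ribosomal proteins and -0.08 for complex I, and without wild type replicate 2 they were -0.12 and -0.14. Wild type replicate 2 held the highest level of 72 of the 77 cytosolic ribosomal proteins.

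**Figure D5:**
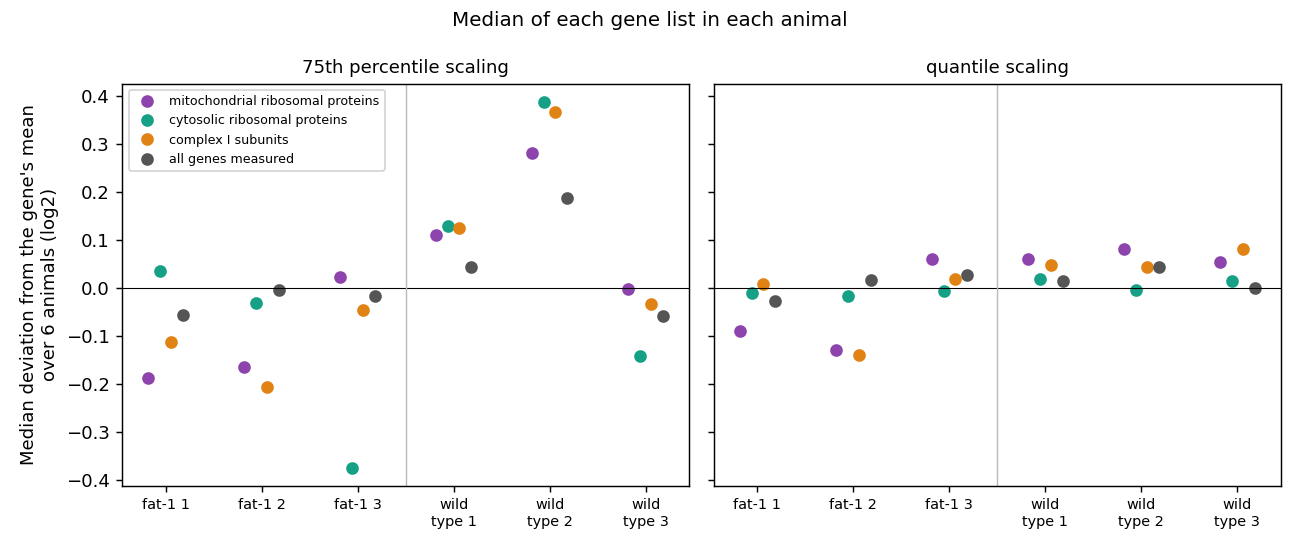
Median deviation of each gene list in each animal, in log2 relative to each gene's mean over the 6 animals, with fat-1 animals left of wild type animals and 75th percentile scaling left of quantile scaling. The 75 genes lie at -0.19 and -0.16 in fat-1 replicates 1 and 2 and at 0.28 in wild type replicate 2 in the left panel, and at -0.09, -0.13 and 0.08 in the right panel.

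Markers of blood cell types also differed between the animals. All 6 measured markers of gamma-delta T cells were below 0, with a median difference of -1.45, and their median deviation was -1.69, -0.06 and -0.32 in fat-1 animals, against 0.49, 0.85 and 0.52 in wild type animals. Without fat-1 replicate 1 the median difference was -0.88. Of 10 alpha-beta T cell markers 8 were below 0, with a median of -0.33, or -0.14 without wild type replicate 2, and their median deviation ran from -0.55 to 0.01 in fat-1 animals and from -0.05 to 0.62 in wild type animals. B cell markers had a median of -0.29 with 5 of 6 below 0, and NK cell markers had -0.29 with 4 of 7 below 0, or -0.10 with quantile scaling and -0.15 without fat-1 replicate 1. Monocyte markers had a median of 0.38 with 1 of 10 below 0, neutrophil markers 0.17 with 1 of 7 below 0, and platelet markers 0.51 with 0 of 4 below 0. The neutrophil median was 0.38 with quantile scaling and 0.51 without wild type replicate 2. Erythroid markers had 0.94 with 3 of 11 below 0, or 0.25 with normexp and 1.47 without wild type replicate 2, and their median deviation ran from 0.11 to 0.86 in fat-1 animals and from -1.31 to 1.07 in wild type animals. The part of cell makeup in the levels of the mitochondrial ribosomal proteins was not tested.

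The spread between animals was larger in the wild type group. The median SD of the 75 genes was 0.154 in fat-1 animals and 0.222 in wild type animals, where over all genes it was 0.203 and 0.311. In 49 of the 75 genes (65.3%) the SD of the wild type animals was the larger one, where this held for 68.3% of all genes. The 71 genes with a position lay on 25 chromosomes. Apart from MRPL46 and MRPS11, the pairs whose brightest probes lay within 500000 bases were MRPL10 and MRPL45 on chromosome 19, MRPS2 and MRPL41 on chromosome 11, and MRPS18A and MRPL14 on chromosome 23. Their gaps were 350457, 385495 and 488743 bases. All members of these pairs had differences below 0, as 86.7% of the 75 genes did.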

How the data were processed

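Whole blood RNA of 3 fat-1 and 3 wild type cattle was measured on Agilent arrays, 1 per animal. The scanner files hold spot intensity from Agilent Feature Extraction 10.7.1.1, per the file headers and per the submitters' processing notes. Processed intensity is background-subtracted, corrected for gradients across the slide and not scaled between arrays, per the file headers. The value table the authors deposited holds log2 values with a median of 6.38 on each array. Correlations of its columns were at least 0.999 with the array of the same animal and at most 0.986 with the others, and its differences lay close to those of quantile scaling. The sources used here do not name the tool behind it. Because gene names in the wild type replicate 2 file had been altered, names come from the first file.

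The 75th percentile of log2 processed intensity over probes other than controls was subtracted on each array. An outlier flag on any array removed 48 probes. Of the rest, the 26811 whose signal was well above background on 3 or more of the 6 arrays were tested. The groups were compared in limma 3.58.1 (R 4.3.3) by lmFit and eBayes on genotype alone, and p-values were adjusted by Benjamini-Hochberg across the 26811 probes. The fit was tested on simulated data. Alternatives were quantile scaling, the authors' table, normexp with an offset of 50, other filters, an intensity trend, array weights, a replicate block, the mean over a gene's probes, and leaving out each animal. Precision is limited by the number of arrays.

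The members and lists were chosen with earlier results of these data known. Named are the 6 highest and the 6 lowest genes by difference, up to 10 with the smallest p, up to 5 whose probes differ in sign and by over 0.5, a list of 13 genes with known roles, and up to 3 genes with the smallest p of each companion list. Others are said to be chosen after their values were seen. The lists of cytosolic ribosomal proteins and complex I subunits were added after values were seen. The result of 1 gene of a companion list is not reported here.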

Additional observations from a re-analysis of the deposited data

How the results depend on the processing

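The count of probes past an adjusted p of 0.05 was 46. It was 16 with quantile scaling and with the authors' value table, 116 with normexp, 14 with no filter on dim probes, 121 with an intensity trend, 8077 with array weights, and 8 to 55 where an animal was left out. Array weights, whose estimation did not converge fully, called 8 of the 75 genes (10.67%), all lower, where they called 30.1% of all probes, among them MRPL49 (-0.52), MRPS12 (-0.47) and MRPS7 (-0.40), while 0 were called with all other alternatives and where an animal was left out (0 to 0). Genes with an unadjusted p under 0.05 numbered 1. They numbered 2 with quantile scaling, the authors' table, the stricter filter and the mean over probes, 3 with a trend, 20 (26.7%, against 42.7% of all genes) with weights, 0 with normexp, and 0 to 3 where an animal was left out, with 3 (4.0%, against 22.3% of all genes) without wild type replicate 3. Genes without overlap of the groups, 22 (29.3%, against 20.5% of all genes), became 11 (14.7%, against 16.8%) with normexp. They numbered 23 to 47 (30.7% to 62.7%) where an animal was left out, and over all genes this share also rose, to 25.5% to 49.5%. The count was 40 (53.3%, 2 of them higher, against 49.5% of all genes) after wild type replicate 3 was dropped. It was 47 (62.7%, against 32.6%) after fat-1 replicate 3 was dropped. Genes below 0 numbered 54 to 68 and the median was -0.32 to -0.15 where an animal was left out. Of 360 values of the 24 named genes under alternatives, 344 kept direction and side of the threshold. With an animal left out the sign changed in MRPL1 (-0.27 to 0.10), MRPL2 (-0.82 to 0.0051), MRPL39 (-0.12 to 0.31), MRPL44 (-0.34 to 0.10) and MRPL47 (-0.10 to 0.54). Weights changed it in MRPL39 (-0.26), MRPL47 (-0.053) and MRPS35 (-0.25). The cause was not tested.

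The groups share replicate numbers. Same-numbered animals had correlations of 0.117, 0.185 and 0.00581 in their deviations from the group mean. Pairs of animals with different numbers had -0.206 to 0.0767. With 3 animals a group, such correlations cannot show whether the animals were paired. With the replicate number as a block, 105 probes (0.392%) passed, and among the 75 genes 0 passed. In that limma fit 0 of the 75 genes had an unadjusted p under 0.05, where 13.7% of all genes did.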
